A study of Mus musculus with 51 samples.

Results

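The transcripts of the mitochondrial genome were examined across 51 libraries of mouse gastrocnemius muscle, a mixed calf muscle that was taken whole and snap frozen. Members were chosen by symbol: every gene whose name begins with mt- in the count tables of both batches. This gave 37 genes of 48294 shared symbols, namely 13 mRNAs, 2 rRNAs and 22 tRNAs. Each library came from a separately numbered animal and was made with a kit that reads the 3′ end of RNA primed at a run of A. In batch 1, floxed controls (Bmal1fx/fx) and animals with the Bmal1 gene deleted in skeletal muscle (Bmal1KO) were fed a high-fat diet (7 and 5 animals) or regular chow (4 and 3). In batch 2, all animals were on high-fat diet: Bmal1fx/fx controls (8) and Bmal1KO (4), Vhlfx/fx controls (6) and VhlKO (4), and Bmal1fx/fx;Vhlfx/fx controls (6) and the double knockout Bmal1KO;VhlKO (4). Each knockout was compared with the floxed controls of its own line, which carry the loxP sites but not the deletion. The sources used here do not give the driver of the recombinase, the deleted exons, the age or the hour of harvest.

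BMAL1 is the core activator of the circadian clock, and VHL is the ubiquitin ligase subunit that marks the HIF alpha proteins for destruction when oxygen is present, so that loss of VHL leaves HIF active. The mitochondrial genome is a small circle that is transcribed on both strands into long precursors, which are then cut, mostly at the tRNAs that lie between the other genes, into rRNAs, mRNAs and tRNAs. Its mRNAs encode core subunits of respiratory complexes I, III and IV and of the ATP synthase. Its rRNAs and tRNAs serve the ribosomes that translate them, while every other protein of the organelle comes from nuclear genes. HIF activity is known to lower mitochondrial respiration and biogenesis in several tissues.

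Sequences are given for 4 of the tRNAs described below, although other tRNA rows passed in the knockouts as well. They are shown from GENCODE M21 on GRCm38, 5′ to 3′ on the strand of the tRNA, with the anticodon in capitals. mt-Tt, the threonine tRNA, lies at chrM:15289-15355 on the plus strand, directly after mt-Cytb. mt-Tl2, the leucine tRNA that reads CUN codons, lies at chrM:11671-11741 on the plus strand, directly before mt-Nd5. mt-Ti, the isoleucine tRNA at chrM:3706-3774 on the plus strand, and mt-Tq, the glutamine tRNA at chrM:3772-3842 on the minus strand, lie between mt-Nd1 and mt-Nd2 and overlap each other by 3 bases.
mt-Tt: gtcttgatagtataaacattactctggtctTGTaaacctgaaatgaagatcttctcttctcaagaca
mt-Tl2: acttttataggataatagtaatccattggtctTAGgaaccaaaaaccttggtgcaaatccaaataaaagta
mt-Tq: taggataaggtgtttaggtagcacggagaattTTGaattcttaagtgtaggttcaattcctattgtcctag
mt-Ti: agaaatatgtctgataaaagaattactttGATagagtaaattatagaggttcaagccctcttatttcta

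The rows differed greatly in how well they were counted. mt-Rnr2, the 16S rRNA, held 402822 to 2429863 counts per library and mt-Rnr1, the 12S rRNA, 118584 to 696855. Among the mRNAs, mt-Nd4 held 134849 to 987888 counts, mt-Nd2 127973 to 887656, mt-Cytb 155662 to 738647 and mt-Nd1 121954 to 433844. Lower ranges were found for mt-Nd5 (19638 to 119917), mt-Co1 (19888 to 95515), mt-Nd3 (923 to 4588) and mt-Nd6 (63 to 629). The tRNA rows were far smaller: the highest, mt-Tm, held 941 to 5475 counts, mt-Tp 365 to 2228, mt-Tl2 40 to 581 and mt-Tt 13 to 327. A tRNA row counts reads that fall in its interval, and the counts do not tell a mature tRNA from a longer RNA that spans it. Levels are not compared between genes here, because tags from the 3′ end do not scale with transcript length.

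The other 5 mRNAs were hardly counted at all: mt-Co2 reached at most 16 counts in any library, mt-Co3 11, mt-Atp6 11, mt-Atp8 43 and mt-Nd4l 6. These rows lie in 1 stretch of the mitochondrial genome, chrM:6381-11042, of which the nuclear genome holds a copy at 1:24611535-24616197 (GRCm38, minus strand) annotated as 7 pseudogenes. Of the 11 members wholly inside that stretch, 10 stayed under 100 counts in every library, and 4 (the tRNAs mt-Ts1, mt-Td, mt-Tk and mt-Tg) were at 0 throughout. Of the 26 members elsewhere, 6 stayed under 100 counts, all of them tRNAs (mt-Tf, mt-Tw, mt-Te, mt-Tn, mt-Ty and mt-Th), and 0 were at 0 throughout. The exception inside the stretch was mt-Nd3, whose copy Gm28438 differs from it at 1 of 345 aligned bases. The last 57 bases shared by mt-Co2 and its copy Gm28661 are printed because the kit reads 3′ ends and these letters are the same in both.
mt-Co2: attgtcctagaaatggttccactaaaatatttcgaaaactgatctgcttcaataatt
Gm28661: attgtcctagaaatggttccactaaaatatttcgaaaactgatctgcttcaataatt
Of the aligned bases, all 681 were identical between mt-Co2 and Gm28661, all 783 between mt-Co3 and Gm28437 and all 678 between mt-Atp6 and Gm10925. mt-Nd4, which was well counted, is copied only over its first 876 of 1378 bases, and its last 200 bases share no stretch of 25 bases with another annotated transcript. mt-Co1 did not follow this pattern: its 3′ end, bases 1054 to 1545, aligns to the copy Gm29216 with 6 of 492 bases differing, and all stretches of 25 bases in its last 200 bases occur in other annotated transcripts, yet it held 19888 to 95515 counts, and Gm29216 0 to 31. The copies were low as well: Gm28661 held 0 to 23 counts per library, Gm28437 0 to 41 and Gm10925 0 to 200. How the reads of this stretch were handled in alignment and counting was not tested. These 5 mRNAs are therefore not described further, and complex IV is represented by mt-Co1 alone and the ATP synthase by no row.

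**Figure D1:**
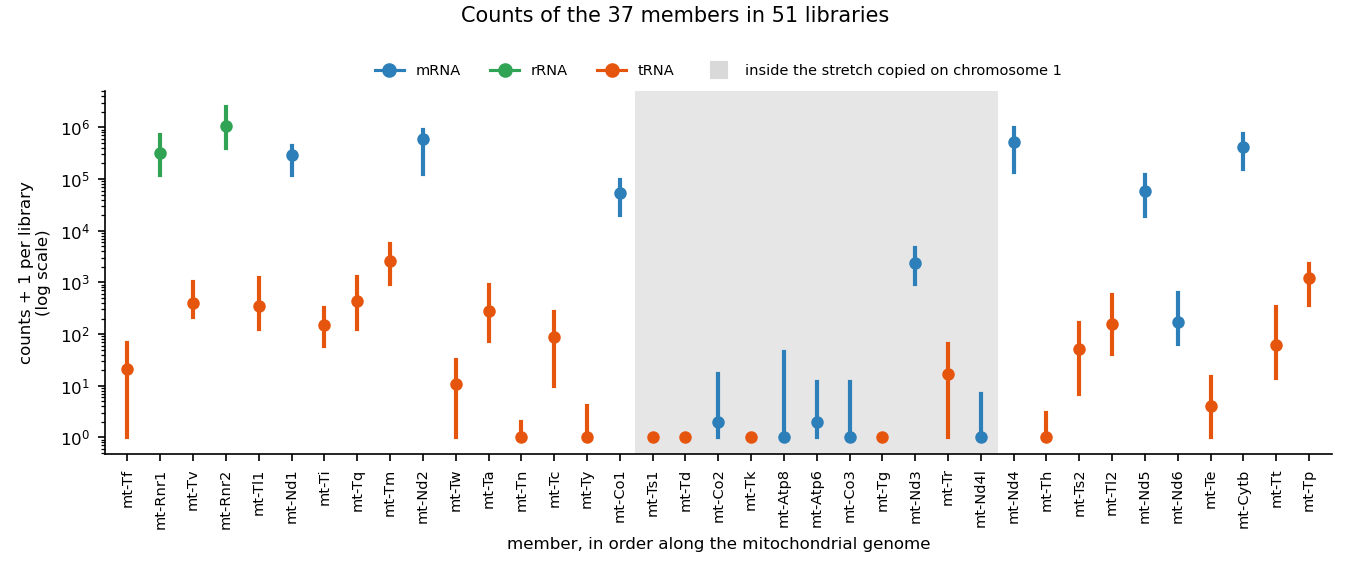
Counts plus 1 per library (log scale) of the 37 members in order along the mitochondrial genome; points are medians and bars the range over 51 libraries, coloured by kind of RNA, and the grey band marks the stretch copied on chromosome 1. Inside the band every row except mt-Nd3 stayed under 100 counts.

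After a filter on low counts, 24 members entered the fit of batch 1 (8 mRNAs, both rRNAs and 14 tRNAs) and 25 that of batch 2, which added the tRNA mt-Te. A library held between 8722659 and 14706388 counts in batch 1 and between 6945247 and 14717795 in batch 2. The targeted genes passed the test in part of the knockouts: Arntl, the gene of BMAL1, by -1.02 ± 0.22 on the log2 scale (± standard error) in high-fat fed Bmal1 knockouts of batch 1 (edgeR adjusted p = 0.00255), and Vhl by -0.85 ± 0.30 in the Vhl knockout (edgeR adjusted p = 0.0217) and by -0.78 ± 0.26 in the double knockout (edgeR adjusted p = 0.0180). Arntl also fell in the double knockout, by 0.48 ± 0.13 (edgeR adjusted p = 0.00213). It did not pass in the Bmal1 knockouts of batch 2 (-0.24 ± 0.13, edgeR adjusted p = 0.239) or on chow (-0.91 ± 0.28, edgeR adjusted p = 0.0821). A 3′ tag outside the deleted exons would check nothing. In the ratio of the rRNAs, 3 control libraries stood apart: mt-Rnr2 per mt-Rnr1 was 5.46 in Bmal1 line control 8, 5.29 in Bmal1 line control 15 and 5.06 in Vhl line control 5, against 2.70 to 3.75 in all other libraries. Without these 3, 14 rather than 16 members passed in the Vhl knockout and 4 rather than 3 in the Bmal1 knockout of batch 2. The share of all genes that passed without them is not given here. Transcripts of lymphocytes summed to 66.3 counts per 1000000 (CPM) in chow control 2 and 89.9 CPM in chow Bmal1 knockout 1, against at most 6.65 CPM in the other libraries.

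The share of all counts that fell on members was lowest in the double knockout and moved most through the mRNAs. In batch 2 the members took 27.4 ± 2.66% of counts in the double line controls (mean ± SD, n = 6; 22.3 to 29.4%, median 28.1%) and 16.6, 21.5, 17.65 and 23.05% in double knockouts 1 to 4. Only the lowest control, control 4 at 22.3%, fell within the range of the knockouts. The mRNA members alone took 13.5 to 18.3% in these controls (median 15.3%) and 8.67, 10.7, 10.1 and 13.0% in the knockouts, so that the groups did not overlap.

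In the Vhl line, the mRNA members took 24.3 to 26.5% of counts in 6 controls (median 25.7%) and 19.96, 17.6, 17.3 and 20.6% in Vhl knockouts 1 to 4, again with no overlap. The rRNA members, in contrast, took 7.48 to 14.4% in these controls (median 12.5%) and 14.1, 9.44, 15.4 and 14.1% in the knockouts, and these ranges overlapped. The share of all members was 37.1 ± 2.30% in controls and 32.2 ± 3.51% in knockouts, and these groups overlapped. In the Bmal1 line of batch 2 the shares lay closer together, at 31.3 ± 1.31% (n = 8) and 29.5 ± 2.62% (n = 4). No test is given for these shares, since the members were chosen with earlier results of these data known.

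In batch 1 the mean share was higher on high-fat diet than on chow. It was 37.7 ± 3.17% in controls on high-fat diet (n = 7) and 28.5 ± 4.08% on chow (n = 4), and 33.7 ± 3.78% (n = 5) and 26.0 ± 2.85% (n = 3) in Bmal1 knockouts. The diets overlapped in controls but not in knockouts. Most of the gap in controls lay in the rRNAs, at 18.7 to 23.3% of counts on high-fat diet (median 21.1%) and 15.8% at most on chow, with no overlap. The mRNA shares of 16.8 ± 2.53% and 13.9 ± 3.19% overlapped. The 2 batches differed in the make-up of this pool: rRNA counts per mRNA count lay between 0.921 and 1.60 in batch 1 but between 0.282 and 1.00 in batch 2, and batch and the animals in it cannot be told apart. In whole muscle, fewer cells of a type, fewer mitochondria per cell and less RNA per mitochondrion cannot be told apart either.

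**Figure D2:**
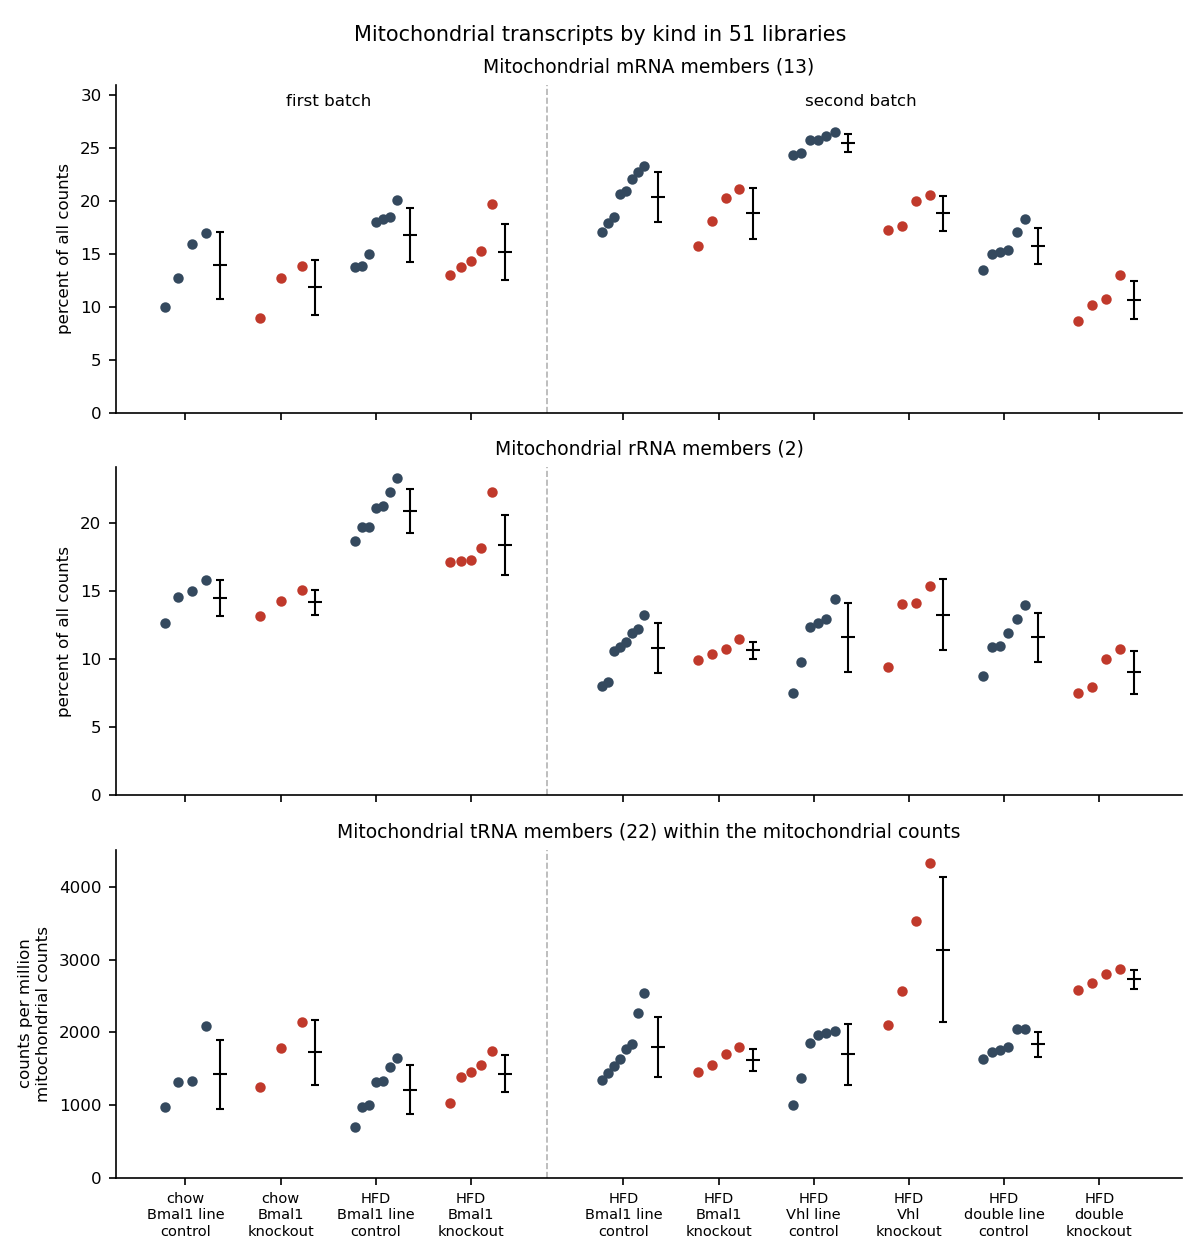
Share of all counts in mRNA and in rRNA members (percent) and tRNA counts per 1000000 mitochondrial counts, 1 point per library in 10 groups, with bars for the mean ± SD; the dashed line separates the batches. The mRNA points of the Vhl and double knockouts lie below all points of their own controls, and their tRNA points above them.

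Next, each member was tested against all genes of the library, with edgeR on the counts and an adjusted p under 0.05. Log2 fold changes are given with their standard error. The values per animal beside them are scaled CPM, that is, counts per 1000000 counts after the scaling of the same fit. The number of members that passed was 16 of 25 in the Vhl knockout (11 higher, 5 lower), where 37.2% of all genes passed (17.7% higher, 19.5% lower). It was 9 without Vhl knockout 3 and 10 with these groups fitted alone, settings for which the share of all genes is not given here. It was 14 of 25 in the double knockout (5 higher, 9 lower), where 35.4% of all genes passed (17.4% higher, 18.1% lower). In the Bmal1 knockout of batch 2, 3 of 25 passed, all lower, beside 13.9% of all genes (6.96% lower). In batch 1 the Bmal1 knockout on high-fat diet had 1 of 24 passing, which was lower, beside 9.00% of all genes (5.18% lower). On chow 0 of 24 passed by edgeR, beside 3.84% of all genes, where 1743 genes had an unadjusted p under 0.05.

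The direction followed the kind of RNA in the Vhl and double knockouts. In the Vhl knockout, 5 of 8 mRNAs fell and 11 of 15 tRNAs rose, while 0 of 2 rRNAs passed; the median log2 fold changes were -0.52, 0.92 and -0.13, against 0.01 over all genes. In the double knockout, 7 of 8 mRNAs fell, 1 of 2 rRNAs fell, and of 15 tRNAs 5 rose and 1 fell; the medians were -0.84, -0.66 and 0.31, against 0.01. The tRNA row mt-Te passed the filter on low counts through the double knockout, where 3 of the 4 libraries that reached it lay; without mt-Te, 5 of 14 tRNAs rose, with a median of 0.30. In the Bmal1 knockout of batch 2, 2 of 8 mRNAs and 1 of 15 tRNAs fell, with medians of -0.21 for mRNAs, -0.05 for rRNAs and -0.18 for tRNAs. Scaling the libraries on all rows except the members gave the same number of passing members in the Vhl, double and batch 2 Bmal1 knockouts and on chow, where 37.1, 35.4, 13.9 and 3.83% of all genes passed. On high-fat diet in batch 1 it gave 2 in place of 1, beside 9.07% of all genes.

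**Figure D3:**
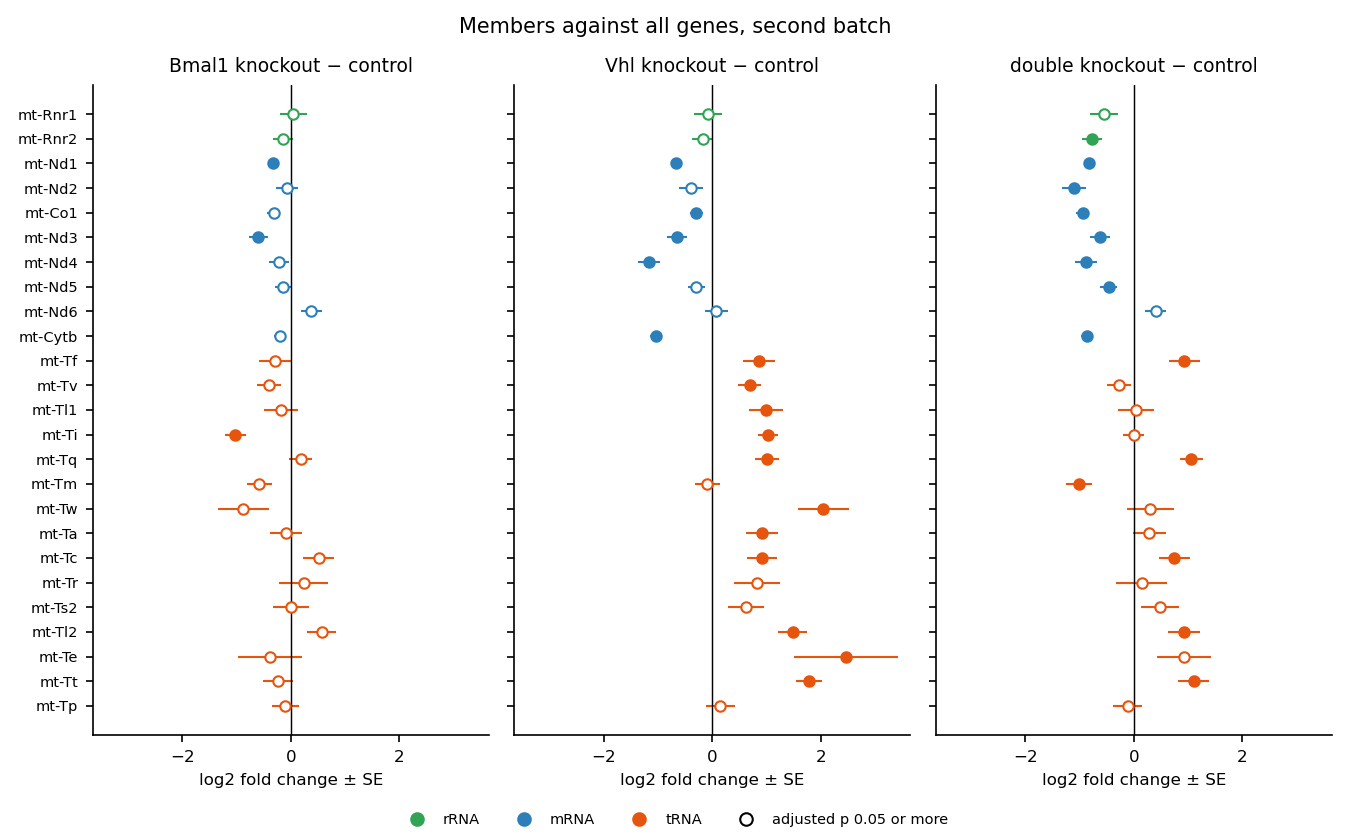
Log2 fold change ± standard error of each member in the fit of batch 2 for the Bmal1, Vhl and double knockouts against their own controls; filled points passed at an adjusted p under 0.05, and colours mark the kind of RNA. The mRNAs other than mt-Nd6 lie left of 0 in the Vhl and double panels, and most tRNAs lie right of it.

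The rRNAs are the RNA core of the mitochondrial ribosome. mt-Rnr2 (chrM:1094-2675) had 61150 to 113536 scaled CPM in double line controls (median 89631) and 44151, 64259, 41842 and 60941 in the knockouts. It fell by 0.77 ± 0.19 on the log2 scale (edgeR adjusted p = 0.00207), and the lowest control overlapped with the knockouts. mt-Rnr1 (chrM:70-1024) differed by -0.55 ± 0.26 in the same comparison and did not pass (edgeR adjusted p = 0.101).

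The ratio of the rRNAs was steady within the double knockout. It was 2.74, 2.73, 2.75 and 2.70 counts of mt-Rnr2 per count of mt-Rnr1, against 3.01 to 3.46 in the controls (median 3.14), with no overlap. In the Vhl knockout, mt-Rnr1 differed by -0.07 ± 0.26 (edgeR adjusted p = 0.851) and mt-Rnr2 by -0.18 ± 0.19 (edgeR adjusted p = 0.473).

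Both rRNAs were higher on high-fat diet than on chow in the controls of batch 1. mt-Rnr2 held 148435 to 210063 scaled CPM in controls on high-fat diet (median 172024) and 109903, 82135, 117744 and 123295 in chow controls 1 to 4, with no overlap. The difference was 0.70 ± 0.13 (edgeR adjusted p = 0.00148), and that of mt-Rnr1 was 0.63 ± 0.12 (edgeR adjusted p = 0.00148). In Bmal1 knockouts the same contrast gave 0.58 ± 0.13 for mt-Rnr1, which passed (edgeR adjusted p = 0.0102, and 0.103 without chow knockout 3), and 0.45 ± 0.15 for mt-Rnr2, which did not (edgeR adjusted p = 0.0867).

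Of the 8 mRNAs in the fit, 6 encode subunits of complex I, the enzyme that takes electrons from NADH. mt-Nd1 (chrM:2751-3707) was lower in all 3 knockouts of batch 2. In the Vhl line it held 32687 to 40788 scaled CPM in controls (median 38133) and 25920, 22855, 22198 and 23339 in knockouts 1 to 4. In the double line it held 24854 to 27836 (median 25505) and 13367, 13522, 15894 and 16150. Neither pair of groups overlapped. It fell by 0.66 ± 0.07 in the Vhl knockout (edgeR adjusted p = 3.1e-10) and by 0.82 ± 0.07 in the double knockout (edgeR adjusted p = 6.22e-13).

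In the Bmal1 line of batch 2, mt-Nd1 held 28946 to 37148 scaled CPM in 8 controls (median 31908) and 26424, 27110, 23412 and 26535 in knockouts 6 to 9. All 4 knockouts lay below all controls, and the gene fell by 0.33 ± 0.07 (edgeR adjusted p = 0.000398). In batch 1 on high-fat diet, the Bmal1 knockout differed in mt-Nd1 by -0.35 ± 0.12 and did not pass (edgeR adjusted p = 0.0773).

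mt-Nd4 (chrM:10167-11544) had the deepest fall of any mRNA in the Vhl knockout. Controls held 83886 to 112976 scaled CPM (median 99544) and knockouts 46341, 40939, 36290 and 51906, and the groups lay far apart. It fell by 1.17 ± 0.21 (edgeR adjusted p = 5.66e-05). In the double line the ranges touched, at 28258 to 50706 in controls (median 34268) and 14780, 19539, 18243 and 29041 in knockouts, of which only knockout 4 reached the controls. The fall there was 0.88 ± 0.21 (edgeR adjusted p = 0.00125).

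mt-Nd2 (chrM:3914-4951) had the deepest fall of any mRNA in the double knockout, at 1.10 ± 0.23 (edgeR adjusted p = 0.000313). Controls held 27217 to 59177 scaled CPM (median 49085) and knockouts 14026, 27453, 16368 and 30180, so that the lowest control overlapped with knockouts 2 and 4. In the Vhl knockout mt-Nd2 did not pass, at 58260 to 93436 in controls (median 89474) and 70466, 42910, 62594 and 74123 in knockouts.

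mt-Nd3 (chrM:9459-9806) fell by 0.60 ± 0.17 in the Bmal1 knockout of batch 2 (edgeR adjusted p = 0.0181), by 0.65 ± 0.18 in the Vhl knockout (edgeR adjusted p = 0.00562) and by 0.63 ± 0.18 in the double knockout (edgeR adjusted p = 0.00781). Its call was lost in each of these with scaling by total count, which moved all genes by 0.08 in the Bmal1, 0.35 in the Vhl and 0.36 in the double knockout, and in the Bmal1 knockout also without knockout 7 or 9. Over all other settings tried, leave-one-out aside, it was kept in 9 of 11 in the Bmal1, 10 of 11 in the Vhl and 7 of 10 in the double knockout, scaling by total count included. mt-Nd5 (chrM:11742-13565) fell by 0.47 ± 0.15 in the double knockout (edgeR adjusted p = 0.0164), a call lost without knockout 1 or 3 and with scaling by total count. Leave-one-out aside, that call was kept in 7 of 10 settings.

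mt-Nd6 (chrM:13552-14070) is the one mRNA read from the other strand. It held 24.6 to 33.0 scaled CPM in double line controls (median 27.4) and 27.6, 45.8, 31.8 and 40.3 in knockouts, and its difference of 0.40 ± 0.19 did not pass (edgeR adjusted p = 0.107). In the Vhl knockout the difference was 0.07 ± 0.21 (edgeR adjusted p = 0.827). It overlaps the end of mt-Nd5 on the opposite strand, and the sources used here do not give the strand setting of the counting, so that reads of the shared bases cannot be assigned. In the other bases of mt-Nd6, and in the tRNA rows of the minus strand, the strand of the reads is not known either.

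mt-Cytb (chrM:14145-15288) encodes cytochrome b, the mitochondrial subunit of complex III. It held 54660 to 79508 scaled CPM in Vhl line controls (median 64999) and 32552, 35422, 27422 and 32852 in knockouts. The double line gave 36043 to 45887 (median 39652) and 19293, 20783, 21811 and 25955. In both lines all knockouts lay below all controls, and the falls were 1.04 ± 0.11 (edgeR adjusted p = 2.82e-09) and 0.86 ± 0.11 (edgeR adjusted p = 8.87e-08).

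mt-Co1 (chrM:5328-6872) encodes the catalytic subunit of complex IV, which passes electrons to oxygen. In the double line it held 4294 to 6283 scaled CPM in controls (median 5259) and 2180, 3105, 2346 and 3299 in knockouts, and it fell by 0.94 ± 0.12 with no overlap (edgeR adjusted p = 2.59e-07). It was also the one member that passed for the Bmal1 knockout on high-fat diet in batch 1. There, 7 controls held 6011 to 7673 (median 6414) and the 5 knockouts 5417, 4608, 4517, 5171 and 4718, again with no overlap, and the fall was 0.43 ± 0.10 (edgeR adjusted p = 0.00269).

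In batch 2 the Bmal1 knockouts likewise lay below all their controls for mt-Co1, at 4350, 4510, 3949 and 4757 scaled CPM against 4955 to 5987 (median 5437), yet the difference of -0.32 ± 0.11 did not pass (edgeR adjusted p = 0.0577). In the Vhl knockout mt-Co1 fell by 0.30 ± 0.12 (edgeR adjusted p = 0.0461), but the groups overlapped, the call was lost without any one of controls 1 to 5 or knockouts 2 and 3, and scaling by total count turned the value to 0.045.

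Most tRNA rows that passed in the Vhl and double knockouts were higher. In the Vhl line mt-Tt differed most of the tRNA rows once mt-Tw, which rose more, and mt-Te are set aside. Both of those rest on few counts. Vhl line controls held 13.0 to 25.8 (median 16.6) counts per 1000000 mitochondrial counts and knockouts 101, 83.3, 101 and 78.0. In scaled CPM the same libraries held 4.59 to 12.0 (median 7.51) and 32.5, 19.3, 30.5 and 25.6. The groups lay far apart on both scales, and mt-Tt rose by 1.78 ± 0.23 (edgeR adjusted p = 3.08e-07). These values rest on 47 to 98 counts per control library and 245 to 327 per knockout library.

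The double line gave 5.72 to 16.1 mt-Tt counts per 1000000 mitochondrial counts in controls (median 9.72) and 43.3, 33.9, 33.8 and 38.6 in knockouts, and a rise of 1.10 ± 0.28 against all genes (edgeR adjusted p = 0.00289). In the Bmal1 line of batch 2 the values overlapped, at 8.51 to 18.9 (median 12.4) and 13.5, 11.5, 11.4 and 14.8. The effect in the double knockout exceeded that in the Bmal1 knockout by 1.35 (edgeR adjusted p = 0.0171).

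mt-Tl2 and mt-Tq rose in both knockouts as well. mt-Tl2 held 18.1 to 42.8 counts per 1000000 mitochondrial counts in Vhl line controls (median 37.4) and 171, 92.6, 181 and 117 in knockouts, and rose by 1.48 ± 0.27 against all genes (edgeR adjusted p = 7.55e-05). In the double line it rose by 0.93 ± 0.29 (edgeR adjusted p = 0.0137), a call lost without knockout 4. mt-Tq, annotated on the minus strand, held 112 to 159 in double line controls (median 136) and 464, 497, 500 and 503 in knockouts, whose values lay close together. Whether its reads came from that strand is not known, since the strand setting of the counting is not given.

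mt-Tq rose by 1.06 ± 0.21 in the double knockout (edgeR adjusted p = 0.000295) and by 1.01 ± 0.22 in the Vhl knockout (edgeR adjusted p = 0.000516). Its neighbour on the plus strand, mt-Ti, rose by 1.02 ± 0.18 in the Vhl knockout (edgeR adjusted p = 4.26e-05) but fell in the Bmal1 knockout of batch 2. There it held 12.1 to 20.2 scaled CPM in controls (median 13.8) and 8.52, 6.41, 7.62 and 6.11 in knockouts, with no overlap, and fell by 1.02 ± 0.19 (edgeR adjusted p = 0.000216).

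Of the remaining tRNA rows in the Vhl knockout, mt-Tw, mt-Tl1, mt-Ta, mt-Tc, mt-Tf and mt-Tv rose by between 0.69 (mt-Tv) and 2.04 (mt-Tw). The largest of these rests on few counts, with 0 to 7 counts of mt-Tw per control library and 10 to 31 per knockout library. mt-Te also passed on 0 to 4 counts per library in this line, and no fold is given for it. Without Vhl knockout 3 the calls of mt-Ta, mt-Tc, mt-Tf, mt-Tl1 and mt-Tv were lost.

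In the double knockout mt-Tf rose by 0.93 ± 0.28 (edgeR adjusted p = 0.00843) and mt-Tc by 0.75 ± 0.29 (edgeR adjusted p = 0.0439), the latter lost without any one of 6 of the 10 libraries. mt-Tm, which lies directly before mt-Nd2 on the same strand and was the best counted tRNA row, fell with the mRNAs. It held 180 to 316 scaled CPM in controls (median 267) and 103, 152, 108 and 162 in knockouts, with no overlap, and fell by 1.01 ± 0.25 (edgeR adjusted p = 0.00192).

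**Figure D4:**
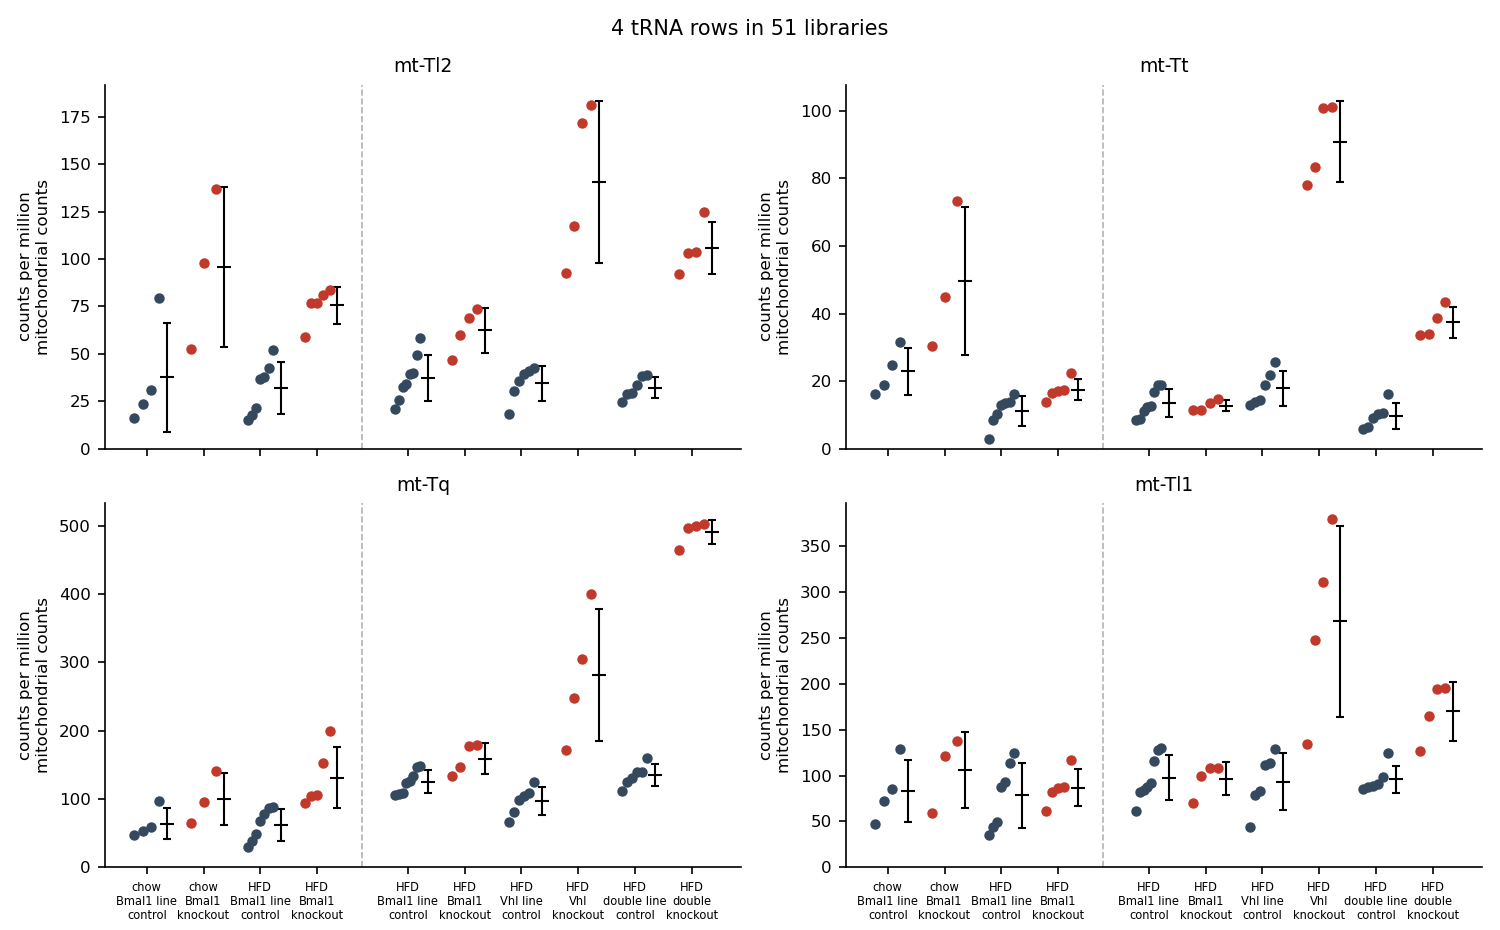
Counts per 1000000 mitochondrial counts of mt-Tl2, mt-Tt, mt-Tq and mt-Tl1, 1 point per library and group, with bars for the mean ± SD; the dashed line separates the batches. The Vhl and double knockouts lie above all of their own controls in each panel.

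The members were then compared within the mitochondrial pool, by using the summed member counts as library size. This asks how the make-up of the pool differed, and it moves the median of all genes by 0.57 in the Vhl knockout, 0.85 in the double knockout and 0.17 in the Bmal1 knockout of batch 2. On this scale 21 of 25 members passed in the Vhl knockout (19 higher, 2 lower), beside 57.2% of all genes (55.6% higher, 1.63% lower). In the double knockout 17 of 25 passed (16 higher, 1 lower), beside 80.6% of all genes (79.1% higher, 1.41% lower). In the Bmal1 knockout of batch 2, 3 of 25 passed (2 higher, 1 lower), beside 8.97% (6.86% higher, 2.11% lower).

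Within the pool all 15 tRNA rows in the fit were higher in the Vhl knockout, with a median of 1.44, and 14 of 15 in the double knockout, with a median of 1.14. Without mt-Te, which entered the fit through the double knockout, the latter were 13 of 14, with a median of 1.12. The exception was mt-Tm. Of all genes, 55.6% were higher on this scale in the Vhl knockout (median 0.57) and 79.1% in the double knockout (median 0.85). mt-Nd6 stood at 80.4 to 120 counts per 1000000 mitochondrial counts in double line controls (median 101) and 218, 260, 236 and 209 in knockouts, with no overlap. It was higher within the pool by 1.20 ± 0.21 (edgeR adjusted p = 7.52e-06), and by 0.62 ± 0.23 in the Vhl knockout (edgeR adjusted p = 0.0191), a call lost without Vhl knockout 2.

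The mRNAs of the plus strand split within the Vhl pool. mt-Nd4 was lower by -0.61 ± 0.16 (edgeR adjusted p = 0.000998) and mt-Cytb by -0.47 ± 0.14 (edgeR adjusted p = 0.00558), while mt-Nd5 between them was higher by 0.26 ± 0.11 (edgeR adjusted p = 0.0346). In the double knockout mt-Nd5 was higher by 0.35 ± 0.11 (edgeR adjusted p = 0.00365) and mt-Nd2 lower by -0.29 ± 0.13 (edgeR adjusted p = 0.0401). The calls of mt-Nd5 in the Vhl pool and of mt-Nd2 in the double pool were each lost without any one of several libraries. Both rRNAs were higher within the Vhl pool, mt-Rnr1 by 0.49 ± 0.19 (edgeR adjusted p = 0.0244) and mt-Rnr2 by 0.37 ± 0.13 (edgeR adjusted p = 0.0144), calls lost without Vhl knockout 3 and, for mt-Rnr1, without control 5.

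In the Bmal1 knockouts the pool differed in few rows. In batch 1 on high-fat diet, 2 of 24 members passed within the pool, both higher, beside 16.5% of all genes (15.2% higher): mt-Tl2 by 1.23 ± 0.37 (edgeR adjusted p = 0.0322) and mt-Tq by 1.07 ± 0.29 (edgeR adjusted p = 0.0178). Controls held 15.1 to 52.0 mt-Tl2 counts per 1000000 mitochondrial counts (median 36.7) and knockouts 83.5, 81.2, 59.1, 77.0 and 76.7, with no overlap. Both calls were lost without knockout 2, and that of mt-Tl2 also without control 2, 3 or 5 or knockout 5. In batch 2 mt-Tl2 was higher by 0.74 ± 0.20 (edgeR adjusted p = 0.0126) with overlapping groups, and the call was lost without knockout 7 or 8. On chow 0 of 24 passed within the pool, beside 2.23% of all genes, where 1596 genes had an unadjusted p under 0.05 in edgeR.

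**Figure D5:**
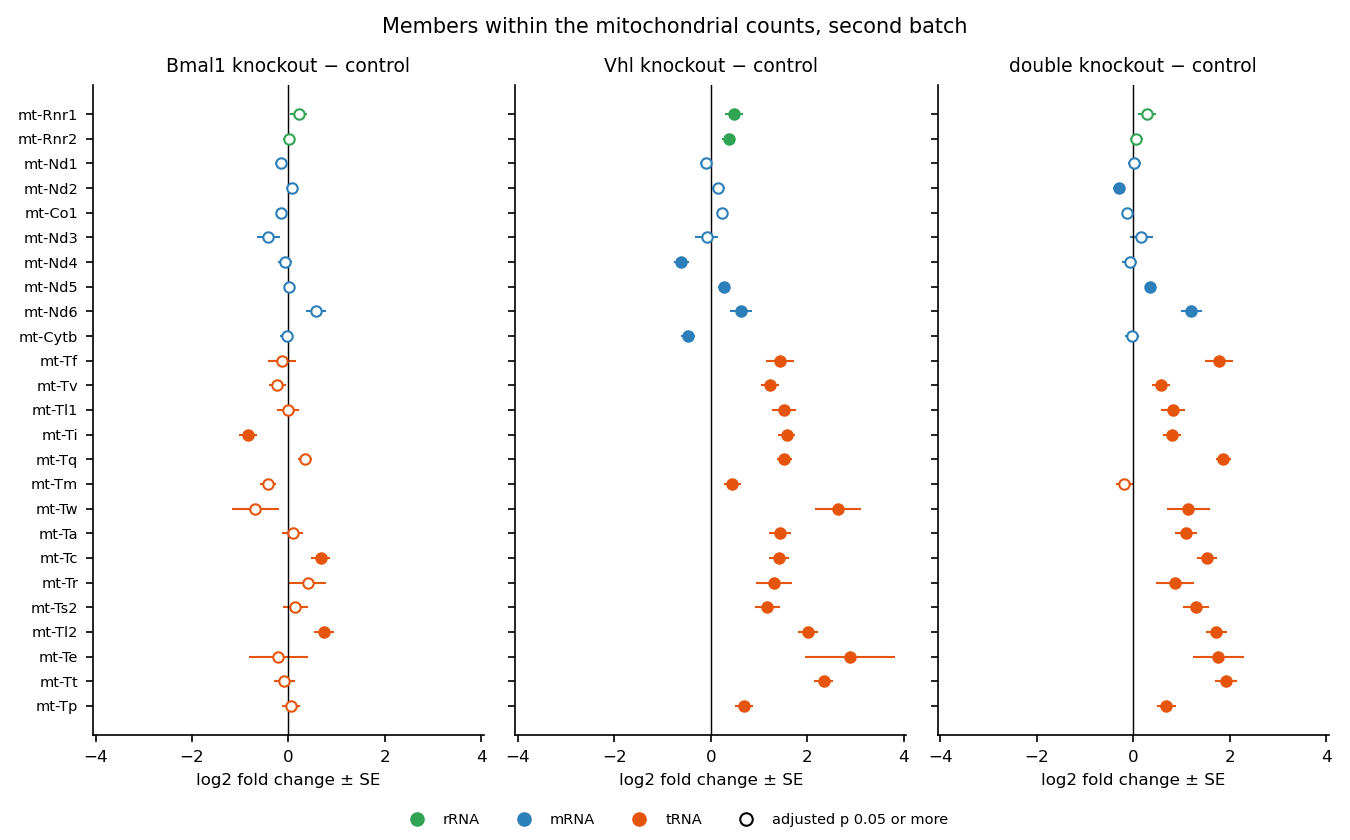
Log2 fold change ± standard error of each member within the mitochondrial counts of batch 2, for the Bmal1, Vhl and double knockouts against their own controls; filled points passed at an adjusted p under 0.05. All tRNA points lie right of 0 in the Vhl panel, and all except mt-Tm in the double panel. The median of all genes on this scale lies at 0.57 in the Vhl and 0.85 in the double knockout.

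Between the diets, the members that passed against all genes were all higher on high-fat diet. In controls 4 of 24 passed, all higher, beside 2.37% of all genes (1.51% higher): both rRNAs, mt-Nd5 by 0.64 ± 0.15 (edgeR adjusted p = 0.0255) and mt-Co1 by 0.37 ± 0.11 (edgeR adjusted p = 0.0491). In Bmal1 knockouts 2 of 24 passed, both higher, beside 3.28% (1.72% higher): mt-Rnr1 and mt-Nd2, the latter by 0.63 ± 0.17 (edgeR adjusted p = 0.0418). The call of mt-Nd5 was lost without high-fat diet control 4 or chow control 1 or 2, and the calls of mt-Co1 and mt-Nd2 without any one of several libraries and without those that held lymphocyte transcripts. The effect of diet did not differ detectably between genotypes for any member or gene by edgeR, where 575 genes had an unadjusted p under 0.05. Marker genes of the muscle fibre summed to 109139 to 139075 CPM in controls on high-fat diet and 152537 to 160404 CPM on chow. These sums are taken over all counts, members included, so that a higher share of members by itself lowers them. Members took a mean of 37.7% of counts in controls on high-fat diet and 28.5% on chow. The marker sums and the member share are therefore not independent, and how much of the marker gap the share accounts for was not tested. The part of the fibre genes in the diet result was not tested.

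Within the pool, mt-Tt and mt-Ti were lower on high-fat diet in both genotypes, on a scale that moved the median of all genes by -0.60 in controls and -0.46 in knockouts. In controls 3 of 24 members passed, all lower, beside 56.1% of all genes (55.6% lower), and in knockouts 2 of 24, both lower, beside 22.7% (22.2% lower). mt-Tt differed by -1.01 ± 0.28 in controls (edgeR adjusted p = 0.00436) and by -1.505 ± 0.32 in knockouts (edgeR adjusted p = 0.0019). mt-Tt held 31.5, 24.8, 16.2 and 18.8 counts per 1000000 mitochondrial counts in chow controls and 3.00 to 16.1 on high-fat diet (median 13.0), and 45.0, 73.4 and 30.5 in chow knockouts against 13.7 to 22.5 on high-fat diet (median 17.1). The diets did not overlap in either genotype, although in controls they lay next to each other. mt-Ti held 51.1 to 71.6 on chow and 24.98 to 51.8 on high-fat diet in controls, which overlapped, and 55.3 to 73.9 and 19.6 to 43.5 in knockouts, which did not. It differed by -0.78 ± 0.19 (edgeR adjusted p = 0.0016) and -0.91 ± 0.23 (edgeR adjusted p = 0.00571).

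The effect of the double knockout was also set against that of each single one. Against the Bmal1 knockout, 8 of 25 members differed, 4 in each direction, beside 16.7% of all genes (7.69% higher, 9.04% lower). mt-Nd2 (-1.03), mt-Cytb (-0.66), mt-Co1 (-0.62) and mt-Nd1 (-0.49) were lower, and mt-Tt, mt-Tf, mt-Ti and mt-Tq higher. Against the Vhl knockout, 2 of 25 differed, both lower, beside 8.56% (4.06% lower): mt-Ti by -1.03 (edgeR adjusted p = 0.0141) and mt-Co1 by -0.64 (edgeR adjusted p = 0.0123).

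The floxed control lines differed among themselves, and the largest of these differences in share exceeded that of any knockout from its own controls. Members took 37.1 ± 2.30% of counts in Vhl line controls, 31.3 ± 1.31% in Bmal1 line controls and 27.4 ± 2.66% in double line controls, with no overlap between any of these groups, although the highest Bmal1 line control and the lowest Vhl line control both stood at 34.0%. The double line controls lay 9.76 percentage points below the Vhl line controls, while the double knockout lay 7.68 points below its own controls. Between the double and Vhl line controls, 8 of 25 members passed (2 higher, 6 lower), beside 6.82% of all genes (2.96% higher, 3.86% lower), with mt-Nd4 at -1.39 ± 0.18 (edgeR adjusted p = 1.98e-05) and mt-Tt at -1.52 ± 0.26 (edgeR adjusted p = 0.000382). The 2 higher rows were mt-Nd6 and mt-Te. Of the libraries in which mt-Te reached the filter on low counts, 1 was a double line control and 3 were not, where 4 were needed. The call of mt-Te therefore depends on the group in which it was higher, and it rests on 0 to 11 counts per library. Between the double and Bmal1 line controls, 3 of 25 passed, all lower, beside 1.06% (0.512% lower): mt-Nd4, mt-Cytb and mt-Nd1. Between the Vhl and Bmal1 line controls, 0 of 25 passed by edgeR, beside 0.642% of all genes, with 1433 genes at an unadjusted p under 0.05. By DESeq2 3 members passed, for which no share of all genes is given here. Each knockout was compared with the controls of its own line. Setting the double knockout effect against a single knockout effect, however, draws on lines whose controls differed. mt-Cytb and mt-Nd1, which differed between the double and Bmal1 knockout effects, also differed between the controls of those lines.

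Part of the nuclear genes that serve the mitochondrial genome fell in the Vhl and double knockouts, where 19.5% and 18.1% of all genes fell. Of 14 genes of mitochondrial transcription in the fit, 7 fell and 1 rose in the Vhl knockout (median -0.38), among them Tfam, the factor that packs and helps transcribe the genome (-0.59 ± 0.09, edgeR adjusted p = 9.44e-07) and Polrmt, its RNA polymerase (-0.63 ± 0.13, edgeR adjusted p = 9.95e-05). In the double knockout 5 of 14 fell (median -0.27), led by Mterf2 (-1.10 ± 0.16, edgeR adjusted p = 1.29e-07). Of 27 genes of RNA processing, stability and decay, 15 fell in the Vhl knockout (median -0.39) and 18 in the double knockout (median -0.36), and 0 rose in either. Grsf1, an RNA-binding protein of mitochondrial RNA granules, fell by 0.82 ± 0.08 in the Vhl knockout (edgeR adjusted p = 3.53e-12), and Rexo2, an exonuclease that clears short RNAs, by 0.61 ± 0.07 in the double knockout (edgeR adjusted p = 2.8e-10). The lists were chosen with results of these libraries known.

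Nuclear subunits of the respiratory complexes mostly fell in the Vhl knockout and, where they passed, rose in the Bmal1 knockouts. In the Vhl knockout 31 of 37 genes of complex I, 4 of 4 of complex II, 7 of 9 of complex III, 7 of 13 of complex IV and 12 of 16 of the ATP synthase fell, beside 19.5% of all genes. In the Bmal1 knockout of batch 2, 20 of 37, 2 of 4, 8 of 9, 8 of 13 and 12 of 16 rose, and 0 fell, beside 6.94% of all genes that rose. In batch 1 on high-fat diet, 13, 0, 7, 10 and 9 of these genes rose, and 0 fell, beside 3.82% of all genes; on chow 1, 0, 0, 3 and 2 rose, beside 1.55%. In batch 2 Cox5b, a nuclear subunit of complex IV, rose by 0.41 ± 0.05 (edgeR adjusted p = 2.06e-08). In the double knockout 16, 2, 4, 2 and 6 of the genes of complexes I to IV and the ATP synthase fell and 3, 0, 0, 1 and 0 rose, beside 18.1% of all genes that fell; the medians ran from -0.28 (complex II) to -0.03 (complex IV), against -0.84 for the mitochondrial mRNAs.

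Some markers of other cells differed between the same groups. The sum of 6 endothelial genes was 248 to 305 CPM in Vhl knockouts against 94.6 to 111 in controls, and 215 to 319 in double knockouts against 104 to 132. The sum of 8 adipocyte genes was 1099 to 1641 CPM in double knockouts against 497 to 889, and that of 8 macrophage genes 138 to 164 against 79.7 to 116. In the Vhl line both overlapped, at 729 to 1015 against 410 to 1180 and at 123 to 243 against 73.9 to 177. The sum of 9 slow or oxidative fibre genes overlapped in both lines. It was 1113 to 4792 CPM in Vhl knockouts against 1892 to 3333, and 2215 to 2895 in double knockouts against 2505 to 3791. The sum of 10 muscle fibre genes was 100491 to 118500 CPM in Vhl knockouts against 124773 to 138281, and 134915 to 147031 in double knockouts against 149782 to 162895. All genes of these lists were detected. The sums are taken over all counts, members included, so that a lower share of members by itself raises them. Members took a mean of 32.2% of counts in Vhl knockouts and 37.1% in their controls. In the double line these means were 19.7% and 27.4%. The part of these cells in the member results was not tested.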

How the data were processed

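RNA of whole gastrocnemius was isolated by TRIzol followed by a column, and 300 ng entered each QuantSeq 3′ FWD library (Lexogen), per the labels' protocols. The authors deposited raw counts per gene for each library, which were the values tested. Per the submitters' processing notes, FastQC 0.11.4, STAR 2.6.0, HTSeq and edgeR 3.26.8 were named, with the builds mm10 and GRCm38.p4; the sources used here do not give how multiply aligned reads and strand were treated in counting. The authors also deposited normalized counts, a signal that is never negative, which entered only the limma alternative as log2(value + 1).

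Groups came from GEO's labels. Animals are numbered as in the sample titles; 3 Bmal1 knockouts of batch 2, titled animals 7, 8 and 9, have columns in the deposited tables that end in 9, 10 and 11, a link that the labels state. Each batch was fitted alone over all its groups with edgeR 4.0.16 (R 4.3.3), quasi-likelihood test, filterByExpr and TMM scaling on all rows. The fit was repeated with scaling on rows without the members and with the summed member counts as library size. P-values were Benjamini-Hochberg adjusted over all genes tested, with a threshold of 0.05. Every member in the fit could be named, with Arntl and Vhl; members outside it are given by counts, and of each gene list at most the 4 genes with the smallest p in a comparison. Members and lists were chosen with earlier results of these data known. Alternatives used RLE or no scaling factors, DESeq2 1.42.0, limma 3.58.1, other filters, separate fits and leaving out each library. The fit was tested on simulated data. Knockouts in batch 2 of different lines have different controls, but the comparisons of the double knockout with each single one share the double line. Animals of 1 group are separately numbered, so the p-values measure the spread between animals.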

Additional observations from a re-analysis of the deposited data

Results flagged for a closer look

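In groups of 4 to 10 libraries, 63 combinations of a summary and a group were examined for a library far from the rest, and 5 were found; chance gives about 1 in 20. Double line control 4 had 22.3% of counts on members, with the next control at 26.99%. Bmal1 knockout 1 on high-fat diet in batch 1 had 22.3% on rRNAs, with the next at 18.1%. Chow control 1 had 1.46 rRNA counts per mRNA count, with the next at 0.992. The ratio of mt-Rnr2 to mt-Rnr1 was 3.46 in double line control 3, with the next at 3.17, and 5.06 in Vhl line control 5, with the next at 3.37.

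The effect of the double knockout differed from that of the Bmal1 knockout by a test of the difference itself (edgeR interaction contrast) for 8 members. The differences on the log2 scale were -0.62 for mt-Co1 (adjusted p = 0.00671), -0.66 for mt-Cytb (0.00126), -0.49 for mt-Nd1 (0.00022) and -1.03 for mt-Nd2 (0.0174). They were 1.21 for mt-Tf (0.0348), 1.02 for mt-Ti (0.00892), 0.88 for mt-Tq (0.0453) and 1.35 for mt-Tt (0.0171). Against the Vhl knockout the effect differed by -0.64 for mt-Co1 (edgeR adjusted p = 0.0123) and by -1.03 for mt-Ti (edgeR adjusted p = 0.0141).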

How the results depend on the processing

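Against other settings, leave-one-out aside, the counts and shares gave 229 values close to the reported one (a count within 1.5 times, a share difference within 1 SD between replicates), 49 beyond that and 2 that reversed, and single members 1053 that held, 116 that lost their call and 1 that reversed (mt-Co1 in the Vhl knockout, 0.045 with scaling by total count). The cause was not tested. In this section, counts of passing members carry no share of all genes. A shift in such a count may therefore not be particular to the members.

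Members passing in the Bmal1 knockout of batch 2 (3) became 6 with the groups fitted alone, 5 without robust estimation and 1 with the replicate block; within the pool (3) they became 5 with the groups alone, 1 on the mRNA pool and 0 with the block. On chow (0) no filter gave 2, and within the pool (0) no filter gave 1 and the block 1. In batch 1 on high-fat diet (1), DESeq2 gave 4, no filter 6, and a higher filter, the groups alone and scaling without members 2 each. The Vhl knockout (16) gave 10 with the groups alone and 10 with the block.

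Double minus Bmal1 effects (8; pool 13) gave 0 and 3 with the block. Double minus Vhl effects (2) gave 4 by DESeq2, 4 by limma, 4 without robust estimation, 1 with the groups alone and 0 with the block, and in the pool (0) 1 without a filter; the difference in share (-2.75 points) was 1.51 on mRNAs and 0.912 without rRNAs. Double against Bmal1 line controls (3) gave 7 by DESeq2, 5 by limma, 5 without robust estimation and 0 with the block; in the pool (2), 1 without the 3 control libraries that stood apart, 6 on the mRNA pool and 0 with the block. Double against Vhl line controls in the pool (10) gave 16 on the mRNA pool. Vhl against Bmal1 line controls (0) gave 3 by DESeq2, by limma and without those 3 libraries, 5 with total-count scaling, and 2 with the groups alone, no filter or no robust estimation; in the pool (6) the block gave 0. Diet in knockouts (2) gave 5 by DESeq2, 5 without a filter, 0 by limma, 1 with the block and 1 without the lymphocyte libraries, and the share difference of 7.63 points was 3.38 on mRNAs. Diet in controls (4) gave 1 by limma, and 9.26 points became 2.88 on mRNAs and 4.94 without rRNAs.

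The block used animal numbers, taken from the sample titles, which only name animals here: same-numbered animals of different groups correlated between -0.29 and 0.17. The settings that left out the 3 control libraries, the lymphocyte libraries or all but the mRNA pool were chosen after seeing the data.

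Leaving out each library in turn, members passing ranged from 1 to 3 for Bmal1 on high-fat diet in batch 1 (pool 0 to 3), 0 to 1 on chow (pool 0 to 1), 1 to 4 in the pool of batch 2, 9 to 16 for Vhl (9 without knockout 3; pool 18 to 21), 12 to 14 for the double knockout (pool 14 to 17), 6 to 8 for double minus Bmal1 (pool 9 to 15) and 2 to 4 for double minus Vhl (pool 0 to 6). For control lines they ranged from 0 to 4 (Vhl against Bmal1), 2 to 5 (double against Bmal1; pool 0 to 3) and 7 to 11 (double against Vhl), and for diet from 2 to 5 in controls and 0 to 3 in knockouts. Rows under 100 counts, most of them tRNAs, limit the precision.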
